A study of Mus musculus with 22 samples.

Results

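The mitosis genes are 43 genes whose products build the spindle, hold chromosomes on it, keep the checkpoint that delays separation, and divide the cell. They were taken by gene symbol from a fixed list of spindle, kinetochore, checkpoint and cytokinesis genes, by a rule that uses no measured value, though the list was drawn up with earlier results of these data known. All 43 were measured, each by 1 probe, among 19752 genes on the array. Each gene was read from the probe whose only annotated symbol is that gene, and the brightest such probe on average was kept where there were several.

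The RNA came from medullary epithelial cells (MECs) of the thymus of C57Bl/6 mice, the cells in which Aire turns on genes of other tissues so that developing T cells meet their products. There were 22 arrays in 8 groups by title: Aire knockout (Aire-/-, KO) and wild type (Aire+/+, WT), each given Etopo, Topo, both drugs (EtopoTopo) or the vehicle DMSO. KO Etopo and KO EtopoTopo had 2 arrays each and the other 6 groups 3 each. Etopo and Topo are common short forms for etoposide, which traps type II topoisomerases, and topotecan, which traps topoisomerase I, although no label gives the full names. Dose and duration of treatment were not used here. The cells were sorted as live cells without CD45, low in Ly51 and high in MHC class II, and the labels do not say whether an array held 1 mouse or a pool, so a p-value measures only the spread between these arrays, which may be partly technical. The genotype label names no cell type to which the loss of Aire was restricted. The Aire probe, which reads across the transcript and does not check the deletion, ran from 11.43 to 12.96 on the log2 scale in KO and from 11.27 to 12.44 in WT.

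Several arrays stood apart. Mean log2 intensity of 17 thymocyte transcripts was 8.61 in KO DMSO 1 and 8.19 in WT DMSO 1, against 6.92 to 7.50 on the other 20 arrays. The 15 MEC markers, among them Epcam and the class II genes, averaged 11.03 to 11.77 on those 20 arrays. The log2 range that holds the middle of the genes, from the 10th to the 90th percentile, was narrowest in KO EtopoTopo 1, WT EtopoTopo 2, WT EtopoTopo 3 and KO Topo 1 (3.89, 4.32, 4.33 and 4.42). By label, all 5 EtopoTopo arrays, WT Etopo 3 and WT DMSO 3 were from animals aged 4 weeks and the rest from animals aged 6 weeks. For WT EtopoTopo 1 and 2 the title names both drugs but the treatment label names Etopo alone. WT DMSO 1, WT Etopo 2 and WT Topo 2 are labelled male, although Xist lay between 11.38 and 12.56 and the brightest of 3 Y-linked genes reached 6.07 across all arrays.

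A cell enters mitosis when Cdk1, bound to cyclins, phosphorylates the proteins that condense chromosomes and rebuild microtubules into a spindle. Kinetochores then tie each chromosome to spindle fibres, and checkpoint kinases hold back the ubiquitin ligase APC/C until every chromosome is attached. Once APC/C acts, cyclins and the ties between sister chromatids are destroyed, and the central spindle and contractile ring pinch the cell apart. Most of these genes are transcribed late in the cycle, in G2 and mitosis. In resting cells the DREAM complex represses them, and the MuvB core that it shares with the activators B-Myb and FoxM1 binds a promoter element called CHR, commonly TTTGAA, often with CCAAT boxes nearby that bind NF-Y. In the thymus medulla, MECs turn over, their precursors divide, and cells with Aire protein are mostly past division.

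The promoters are shown because the letters of this element are common in them. No test tied the element to the changes. RefSeq windows (GRCm38.p6), from 250 bases before to 50 bases after the annotated transcription start, were at hand for 37 of the 43 members. TTTGAA, searched on both strands, occurred in 28 of the 37 (75.7%), against 17.3% of 15483 genes with such a window. Within 50 bases of the start it occurred in 25 members (67.6%), against 4.5% of all genes. CCAAT, on either strand, occurred in 26 members (70.3%) against 41.7%, and at least 2 copies in 18 (48.6%) against 14.3%. Both motifs occurred in 23 members (62.2%) and in 6.9% of all genes, and matches of both motifs that share an end letter were not removed. The related letters TTCGAA were found in 2 members (5.4%) and in 2.1% of genes. A match describes the letters in the window and is not evidence of binding.

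The stretches below are 30 bases each, read 5′ to 3′ along the strand of the gene. Capitals mark only the hexamer match nearest the start. The Anln stretch holds a further match, on the strand of the gene, left in lower case. They belong to 13 of the members described array by array that have the hexamer. Where the capitals read TTCAAA, the hexamer lies on the opposite strand.
Plk1 (chr7:122159451-122159480, plus strand): ttcccagcgccgcgTTTGAAttcggggagg
Cdk1 (chr10:69352912-69352941, minus strand): tttaccgcggcgagTTTGAAactgctggca
Spc25 (chr2:69206174-69206203, minus strand): caggcggtggagagTTTGAAattgaaagac
Kif11 (chr19:37376349-37376378, plus strand): agtcgtctccatttTTCAAAattgaggcgc
Kif2c (chr4:117178860-117178889, minus strand): gcccaggctgctctTTCAAAcctgagtaat
Anln (chr9:22389170-22389199, minus strand): ccggggcgctgaaaTTCAAAttttgaacgg
Racgap1 (chr15:99651636-99651665, minus strand): ggctggtgcgtgatTTTGAAccggatctgg
Bub1b (chr2:118598231-118598260, plus strand): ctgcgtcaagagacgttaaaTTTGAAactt
Hmmr (chr11:40733414-40733443, minus strand): aaagttgaggtaaaTTTGAAttcaggcgag
Mki67 (chr7:135716462-135716491, minus strand): aaccgccgttttggTTTGAAtcgggcgggc
Cdca3 (chr6:124830192-124830221, plus strand): ggcgtggagggaagTTTGAAactccgggct
Ube2c (chr2:164769886-164769915, plus strand): cgggagggttgcaaTTCAAAcgcgggcggc
Cdc20 (chr4:118437346-118437375, minus strand): taagacagttgggtTTTGAAggagccaatg

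Cdk1 is shown at greater length because it fell in all 4 comparisons of Topo or EtopoTopo with DMSO, and it was picked for this after its values were seen. In the 100 bases at chr10:69352913-69353012 (minus strand) the capitals mark TTTGAA, 71 and 15 bases before the start, and ATTGG, which is CCAAT on the opposite strand, 80 and 48 bases before the start.
Cdk1: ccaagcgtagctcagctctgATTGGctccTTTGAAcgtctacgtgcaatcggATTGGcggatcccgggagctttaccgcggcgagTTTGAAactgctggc

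The first question was whether the drugs changed the mitosis genes in either genotype. Many of them were called lower with Topo and with EtopoTopo in both genotypes, and none was called higher. All EtopoTopo arrays were from animals aged 4 weeks, as was WT DMSO 3 alone of the DMSO arrays. Age and treatment therefore cannot be told apart in KO EtopoTopo, and are only partly separate in WT EtopoTopo. With both drugs, 27 of 43 were called lower in KO (limma adjusted p under 0.05 over all genes) and 34 of 43 in WT, and with Topo 22 in KO and 9 in WT. Over all genes, the shares called lower in the same fits were 11.7% in KO EtopoTopo, 7.28% in WT EtopoTopo, 0.78% in KO Topo and 1.38% in WT Topo. Etopo alone gave 0 calls among the members in KO and 0 in WT, where 0% of all genes were called lower in either. By an unadjusted limma p under 0.05, 39 members were lower in KO Etopo (2.8% of all genes) and 2 in WT Etopo (3.4%). In these bulk arrays, fewer dividing cells and less RNA per dividing cell cannot be told apart.

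**Figure D1:**
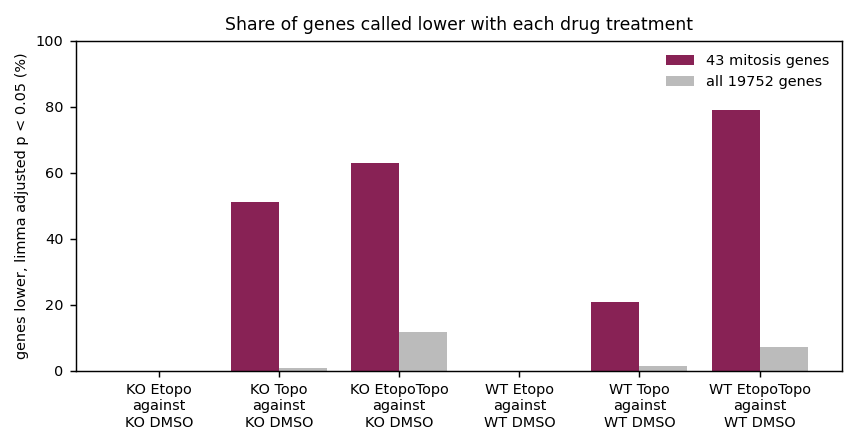
Percent of genes called lower (limma adjusted p under 0.05) for each drug group against DMSO of the same genotype, for the 43 mitosis genes and for all 19752 genes. The bars reach 51.16% of members in KO Topo, 62.79% in KO EtopoTopo, 20.93% in WT Topo and 79.07% in WT EtopoTopo, and no bar stands for Etopo in KO or WT.

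The mean over the 43 members on each array shows the size of the shift. It was 7.60 and 7.75 on the log2 scale in KO Etopo, 7.35 to 7.79 in KO Topo and 7.61 and 7.71 in KO EtopoTopo, against 8.12 to 8.45 in KO DMSO. In WT it was 8.23 to 8.30 with Etopo, 7.68 to 7.97 with Topo, and 7.46, 7.71 and 7.79 with EtopoTopo, against 8.30 to 8.45 with DMSO. Every KO array given a drug therefore lay below every KO DMSO array, and WT Etopo arrays lay at or just under the WT DMSO arrays. The members had median log2 changes of -0.57 in KO Etopo, -0.65 in KO Topo and -0.72 in KO EtopoTopo, where the medians of all genes were 0.02, 0.01 and 0.06. In WT the medians were -0.12 (Etopo), -0.52 (Topo) and -0.71 (EtopoTopo), beside -0.04, 0.01 and -0.01 over all genes. WT EtopoTopo 1 and 2, whose labels conflict, had means of 7.46 and 7.71, below the lowest WT Etopo array at 8.23 and near WT EtopoTopo 3 at 7.79.

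**Figure D2:**
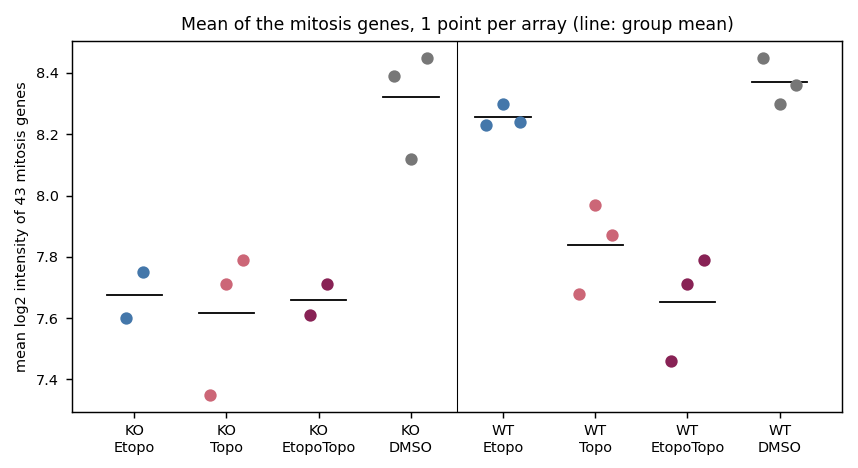
Mean log2 intensity of the 43 mitosis genes (vertical axis), with 1 point per array and a line at each group mean, KO groups left of WT groups. KO Etopo, KO Topo and KO EtopoTopo lie at 7.35 to 7.79 and KO DMSO at 8.12 to 8.45, while WT Etopo (8.23 to 8.30) lies beside WT DMSO (8.30 to 8.45) and WT Topo and WT EtopoTopo lie at 7.46 to 7.97.

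Direction was more uniform than the calls. Of 43 members, 43 had a log2 change below 0 in KO Etopo, 43 in KO Topo, 42 in KO EtopoTopo, 39 in WT Etopo, 43 in WT Topo and 43 in WT EtopoTopo. The member above 0 in KO EtopoTopo was Ndc80, at 0.03. All-gene medians lay between -0.04 (WT Etopo) and 0.06 (KO EtopoTopo), so in WT Etopo most genes were below 0 too. The members were read on the same arrays, so their directions are not independent of each other. Groups that did not overlap, with every drug array below every DMSO array, numbered 41 members in KO Etopo (12.8% of all genes), 38 in KO Topo (8.79%) and 34 in KO EtopoTopo (18.9%). In WT they numbered 9 with Etopo (7.31% of all genes), 38 with Topo (11.4%) and 42 with EtopoTopo (18.5%).

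The counts of calls rested on few arrays and on the fit used. In KO Topo the 22 calls became 5 without KO Topo 1, 0 without KO DMSO 3, 10 without KO DMSO 1, and 0 when the 2 groups were fitted alone. Fitting the 2 groups alone leaves out no array of either and keeps the log2 changes, with the spread estimated from fewer arrays. In KO EtopoTopo the 27 calls became 2 without KO EtopoTopo 1, 0 with the 2 groups fitted alone, and 0 with age as a covariate, and since all KO DMSO arrays were from 6 weeks and both KO EtopoTopo arrays from 4 weeks, age and treatment cannot be told apart in KO. In WT EtopoTopo the 34 calls became 22 without WT DMSO 1, 14 with age as a covariate, 2 within arrays of 4 weeks and 4 without the 2 arrays whose labels conflict, while in WT Topo the 9 became 0 without WT Topo 1, 1 without WT DMSO 1, 3 without WT Topo 3 and 4 without WT DMSO 3. The age covariate was estimated only from WT DMSO and WT Etopo, the groups that hold both ages. In WT DMSO the member mean was 8.36 on array 3 (4 weeks) and 8.45 and 8.30 on the others. In WT Etopo it was 8.24 on array 3 (4 weeks) and 8.23 and 8.30 on the others. The part of age was not tested. Quantile normalisation changed the all-gene calls to 84 higher and 112 lower in KO Topo (50 and 154 as deposited) and to 1432 higher and 1490 lower in WT EtopoTopo (711 and 1438 as deposited), with 0 mitosis genes higher in either. The medians moved far less: leaving out single arrays, they stayed between -0.80 and -0.50 in KO Topo, -0.80 and -0.60 in KO EtopoTopo, -0.80 and -0.61 in WT EtopoTopo and -0.58 and -0.47 in WT Topo.

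**Figure D3:**
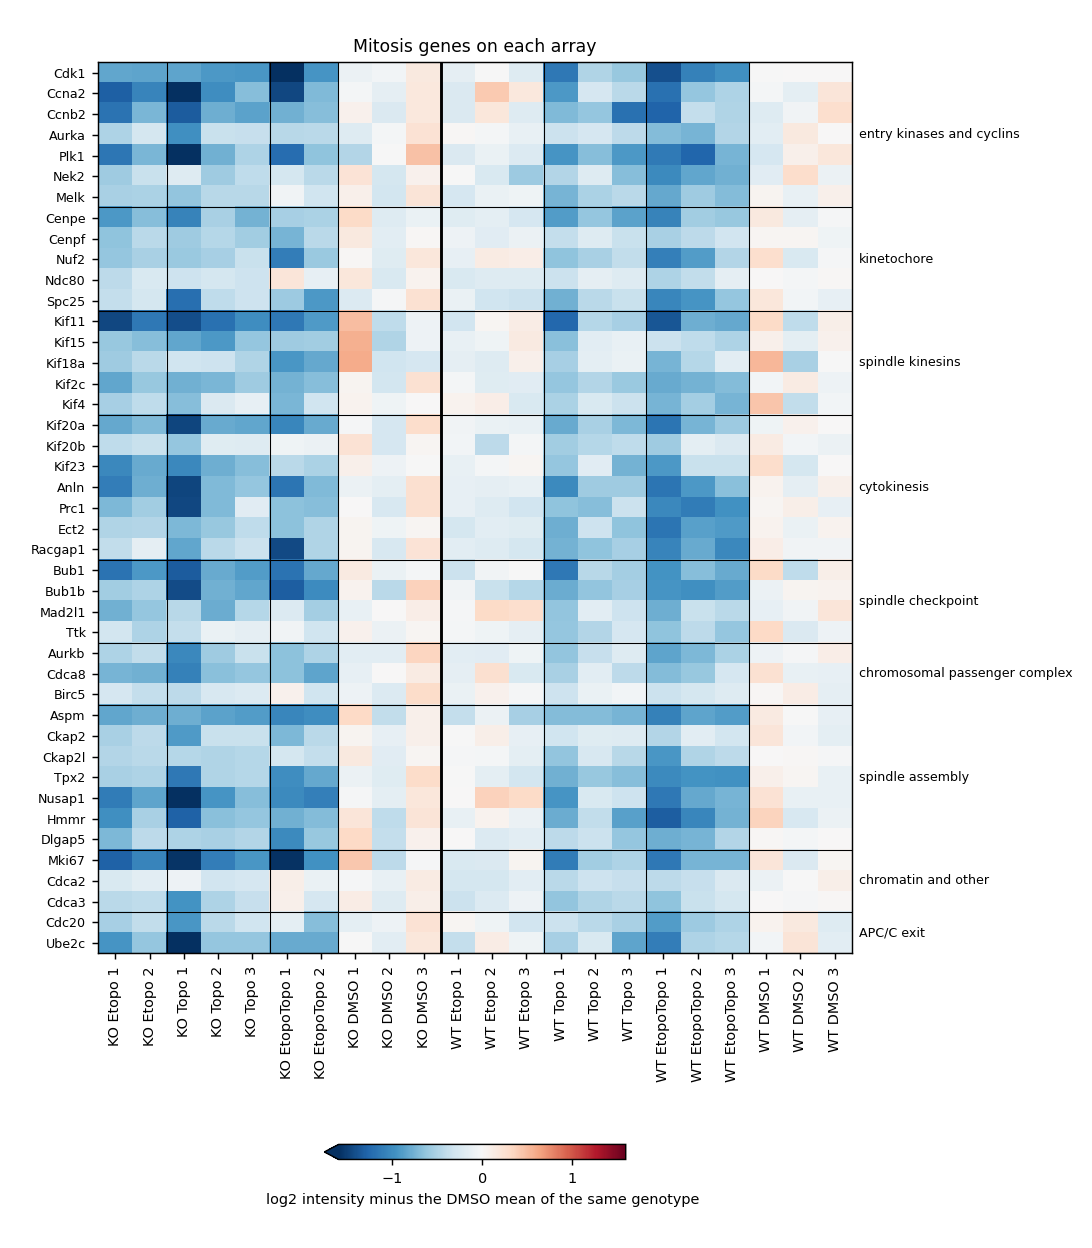
Each row is a mitosis gene, grouped by role, and each column an array, KO left of WT with DMSO last in each. Colour is log2 intensity minus the DMSO mean of the same genotype, and the scale is cut at its dark blue end. Blue fills the KO Etopo, KO Topo, KO EtopoTopo, WT Topo and WT EtopoTopo columns, the WT Etopo columns are near white, and KO Topo 1, with the lowest mean over the members (7.35), is among the darkest.

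The kinases and cyclins of mitotic entry (7 members) are Cdk1, cyclins A2 and B2, Aurora A, Plk1, Nek2 and Melk. Of the 7, 3 were called lower in KO Topo, 3 in KO EtopoTopo, 3 in WT Topo and 6 in WT EtopoTopo. In that order, 0.78%, 11.7%, 1.38% and 7.28% of all genes were called lower, which serves for the role counts below too. Here and below, genes said to fall were called lower (limma adjusted p under 0.05), and genes not called could still have lower means. Cdk1, the kinase that starts mitosis, had log2 intensities of 9.46 and 9.45 in KO Etopo, 9.45, 9.37 and 9.36 in KO Topo, and 8.62 and 9.34 in KO EtopoTopo, against 10.19, 10.24 and 10.44 in KO DMSO. In WT, Cdk1 was at 9.74, 9.87 and 9.68 with Etopo, 8.74, 9.40 and 9.27 with Topo, and 8.48, 8.80 and 8.90 with EtopoTopo, against 9.87, 9.88 and 9.89 with DMSO. Every KO drug array lay below every KO DMSO array, and in WT the Topo and EtopoTopo arrays did, while WT Etopo 2 reached the DMSO level. Cdk1 fell by 1.31 ± 0.19 (SE) in KO EtopoTopo (limma adjusted p = 0.000826), a 2.48-fold drop, and by 0.90 ± 0.17 in KO Topo (adjusted p = 0.0134). In WT, Cdk1 fell by 1.15 ± 0.17 with EtopoTopo (adjusted p = 0.000157) and by 0.74 ± 0.17 with Topo (adjusted p = 0.0206).

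Plk1, a kinase that acts at centrosomes, kinetochores and the cleavage site, had the largest standard errors of the 43 members. Its values were 7.95 and 8.37 in KO Etopo, 6.73, 8.33 and 8.61 in KO Topo, and 7.88 and 8.46 in KO EtopoTopo, against 8.64, 9.10 and 9.57 in KO DMSO. With WT cells Plk1 gave 9.22, 9.35 and 9.24 in Etopo, 8.51, 8.77 and 8.54 in Topo, and 8.32, 8.18 and 8.71 in EtopoTopo, against 9.18, 9.54 and 9.64 in DMSO. KO Topo 1 lay far under the other 2 KO Topo arrays, and every KO drug array lay below every KO DMSO array. Plk1 was called only in WT EtopoTopo among these contrasts, where it fell by 1.05 ± 0.32 (limma adjusted p = 0.0394), and its change of -1.22 ± 0.32 in KO Topo had an adjusted p of 0.0732. Cyclin B2 (Ccnb2), a Cdk1 partner, fell in all 4 Topo and EtopoTopo contrasts, by 0.71 to 0.99. Cyclin A2 (Ccna2), another partner, fell by 1.17 ± 0.26 in KO Topo and 1.08 ± 0.29 in KO EtopoTopo. Its change in WT EtopoTopo, -0.77 ± 0.26, missed the threshold (limma adjusted p = 0.0588), and the difference between genotypes was not called. Melk, a kinase of dividing cells, fell in WT Topo and WT EtopoTopo, and Nek2 and Aurka, kinases of the centrosome, fell in WT EtopoTopo.

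Kinetochore genes (5 members) are Cenpe, a motor that carries chromosomes to the spindle equator, Cenpf, and Nuf2, Ndc80 and Spc25 of the complex that grips microtubules. Of the 5, 2 fell in KO Topo, 4 in KO EtopoTopo, 1 in WT Topo and 4 in WT EtopoTopo. Cenpe was at 6.66 and 6.90 in KO Etopo, 6.51, 7.06 and 6.82 in KO Topo, and 7.05 and 7.07 in KO EtopoTopo, against 7.89, 7.37 and 7.48 in KO DMSO. Cenpe values in WT were 7.50, 7.54 and 7.42 with Etopo, 6.80, 7.08 and 6.84 with Topo, and 6.62, 7.14 and 7.09 with EtopoTopo, against 7.85, 7.55 and 7.68 with DMSO. All 7 KO drug arrays lay under the KO DMSO arrays. Cenpe fell by 0.78 ± 0.16 in KO Topo and by 0.79 ± 0.16 in WT Topo (limma adjusted p = 0.0215 and 0.0106).

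Spc25 was at 8.31 and 8.41 in KO Etopo, 7.49, 8.29 and 8.36 in KO Topo, and 8.11 and 7.77 in KO EtopoTopo, against 8.47, 8.67 and 8.94 in KO DMSO. Spc25 in WT gave 8.22, 8.01 and 7.98 with Etopo, 7.56, 7.89 and 7.97 with Topo, and 7.28, 7.38 and 7.71 with EtopoTopo, against 8.50, 8.28 and 8.19 with DMSO. Its KO drug arrays lay below the KO DMSO arrays, and so did WT Topo and WT EtopoTopo below WT DMSO. Spc25 fell in both EtopoTopo groups, by 0.75 ± 0.21 in KO (limma adjusted p = 0.0208) and 0.87 ± 0.19 in WT (adjusted p = 0.0053). Ndc80, in the same complex, was not called in any drug contrast, with changes from -0.34 to 0.03. Cenpf fell in KO Topo, KO EtopoTopo and WT EtopoTopo, by 0.41 to 0.59.

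Spindle kinesins (5 members) move or shorten microtubules. Kif11 pushes the poles apart, Kif15 can do so beside it, Kif2c takes microtubules apart at centromeres, Kif18a damps chromosome movement and Kif4 works on chromosome arms and the central spindle. Kif11 had 7.55 and 7.86 in KO Etopo, 7.59, 7.82 and 8.01 in KO Topo, and 7.86 and 8.11 in KO EtopoTopo, against 9.50, 8.60 and 8.93 in KO DMSO. Kif11 in WT had 8.90, 9.23 and 9.32 with Etopo, 7.95, 8.75 and 8.67 with Topo, and 7.83, 8.42 and 8.38 with EtopoTopo, against 9.51, 8.80 and 9.30 with DMSO. The KO drug arrays lay at or below 8.11 and the KO DMSO arrays at or above 8.60, while the WT Etopo arrays lay inside the WT DMSO range. Kif11 fell by 1.21 ± 0.24 in KO Topo (limma adjusted p = 0.0169), a 2.31-fold drop, and by 0.99 ± 0.24 in WT EtopoTopo (adjusted p = 0.00954). Its change of -1.31 ± 0.27 in KO Etopo was the lowest of all members there and was not called (limma adjusted p = 0.209).

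Kif2c was at 6.90 and 7.13 in KO Etopo, 6.97, 7.0 and 7.16 in KO Topo, and 6.98 and 7.05 in KO EtopoTopo, against 7.78, 7.44 and 7.98 in KO DMSO. In WT, Kif2c was at 7.64, 7.48 and 7.49 with Etopo, 7.05, 7.20 and 7.07 with Topo, and 6.86, 6.91 and 6.98 with EtopoTopo, against 7.62, 7.80 and 7.59 with DMSO. The KO drug arrays and the WT Topo and EtopoTopo arrays all lay below the DMSO arrays of their genotype. It fell in all 4 Topo and EtopoTopo contrasts, by 0.56 to 0.75. Kif15 fell in KO Topo, Kif18a in KO EtopoTopo and Kif4 in WT EtopoTopo, each in 1 of the 4 contrasts.

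**Figure D4:**
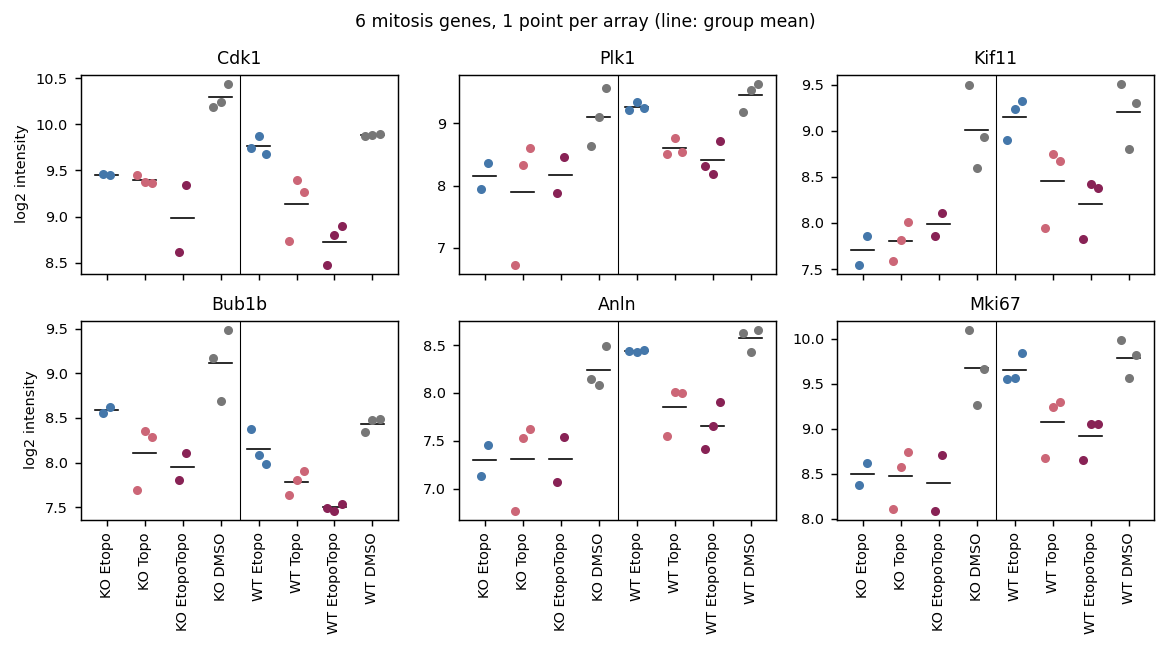
Log2 intensity of Cdk1, Plk1, Kif11, Bub1b, Anln and Mki67, with 1 point per array and a line at each group mean, KO groups left of WT groups and DMSO last in each. The Kif11 panel shows the KO Etopo points (7.55 and 7.86) below all KO DMSO points and the WT Etopo points (8.90 to 9.32) level with WT DMSO, and the Plk1 panel shows KO Topo 1 at 6.73.

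Cytokinesis genes (7 members) build the central spindle and the ring that divides the cell. Of these, 4 fell in KO Topo, 5 in KO EtopoTopo, 2 in WT Topo and 6 in WT EtopoTopo. Anln, anillin, which links the ring to the membrane, was at 7.13 and 7.46 in KO Etopo, 6.77, 7.53 and 7.62 in KO Topo, and 7.07 and 7.54 in KO EtopoTopo, against 8.15, 8.08 and 8.49 in KO DMSO. Anln in WT was at 8.44, 8.43 and 8.45 with Etopo, 7.55, 8.01 and 8.0 with Topo, and 7.41, 7.65 and 7.90 with EtopoTopo, against 8.63, 8.43 and 8.66 with DMSO. The 3 WT Etopo arrays were nearly alike and met the lowest WT DMSO array. Anln fell by 0.93 ± 0.20 in KO Topo (limma adjusted p = 0.0234), by 0.94 ± 0.22 in KO EtopoTopo (adjusted p = 0.00984) and, in WT EtopoTopo, by 0.92 ± 0.20 (adjusted p = 0.00408).

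Racgap1, the GTPase-activating subunit of centralspindlin, was at 8.94 and 9.19 in KO Etopo, 8.51, 8.90 and 8.99 in KO Topo, and 7.89 and 8.86 in KO EtopoTopo, against 9.38, 9.08 and 9.55 in KO DMSO. Racgap1 in WT was at 9.11, 9.07 and 9.0 with Etopo, 8.53, 8.64 and 8.75 with Topo, and 8.22, 8.48 and 8.25 with EtopoTopo, against 9.39, 9.23 and 9.22 with DMSO. KO Etopo 2 lay inside the KO DMSO range, and KO EtopoTopo 1, the array of narrowest range, lay well below KO EtopoTopo 2. Racgap1 fell by 0.96 ± 0.21 in KO EtopoTopo (limma adjusted p = 0.00628) and, in WT EtopoTopo, by 0.97 ± 0.18 (adjusted p = 0.00174). Ect2, the exchange factor that Racgap1 recruits to switch on RhoA, fell in all 4 contrasts and had the lowest adjusted p of any member in WT EtopoTopo (-0.98 ± 0.12, limma adjusted p = 5.22e-05). Kif20a, a kinesin of the central spindle, also fell in all 4, by 0.69 to 1.03. Kif23, the motor of centralspindlin, fell in KO Topo and WT EtopoTopo, and Prc1, which bundles midzone microtubules, in both EtopoTopo groups. Kif20b was called in none of the 4, though its WT Topo and WT EtopoTopo arrays all lay below the WT DMSO arrays.

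Spindle checkpoint genes (4 members) are Bub1, Bub1b (BubR1), Mad2l1 (Mad2) and Ttk (Mps1). Of these, 2 fell in KO Topo, 2 in KO EtopoTopo, 0 in WT Topo and 4 in WT EtopoTopo. Bub1b was at 8.56 and 8.62 in KO Etopo, 7.69, 8.35 and 8.29 in KO Topo, and 7.80 and 8.11 in KO EtopoTopo, against 9.17, 8.69 and 9.49 in KO DMSO. Bub1b in WT was at 8.38, 8.08 and 7.98 with Etopo, 7.64, 7.80 and 7.90 with Topo, and 7.49, 7.46 and 7.54 with EtopoTopo, against 8.34, 8.48 and 8.49 with DMSO. The KO arrays were above the WT arrays of the same treatment with Etopo, EtopoTopo and DMSO, and the KO and WT Topo arrays overlapped. Bub1b fell by 1.17 ± 0.20 in KO EtopoTopo (limma adjusted p = 0.00226), by 1.01 ± 0.18 in KO Topo (adjusted p = 0.012) and, in WT EtopoTopo, by 0.93 ± 0.18 (adjusted p = 0.00178).

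Bub1, the kinase that marks centromeres for the checkpoint, was at 6.84 and 7.10 in KO Etopo, 6.68, 7.21 and 7.12 in KO Topo, and 6.84 and 7.20 in KO EtopoTopo, against 8.16, 7.91 and 7.98 in KO DMSO. Bub1 in WT was at 7.94, 8.23 and 8.28 with Etopo, 7.14, 7.84 and 7.74 with Topo, and 7.33, 7.60 and 7.47 with EtopoTopo, against 8.59, 7.87 and 8.38 with DMSO. All KO drug arrays lay clearly below the lowest KO DMSO array. Bub1 fell by 1.01 ± 0.19 in KO Topo (limma adjusted p = 0.0134), 1.00 ± 0.22 in KO EtopoTopo (adjusted p = 0.00683) and, in WT EtopoTopo, by 0.81 ± 0.19 (adjusted p = 0.00904). Mad2l1 and Ttk, whose products make and launch the checkpoint signal, were called in 1 of the 4 contrasts, WT EtopoTopo, where they fell by 0.53 ± 0.15 and 0.56 ± 0.14.

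The chromosomal passenger complex (3 members) corrects wrong attachments and later guides cytokinesis. Aurkb is its kinase, and Cdca8 (borealin) and Birc5 (survivin) place it at centromeres. Aurkb was at 8.66 and 8.77 in KO Etopo, 8.13, 8.59 and 8.80 in KO Topo, and 8.50 and 8.67 in KO EtopoTopo, against 8.99, 8.99 and 9.50 in KO DMSO. Aurkb in WT was at 9.03, 9.02 and 9.13 with Etopo, 8.57, 8.83 and 9.0 with Topo, and 8.36, 8.48 and 8.70 with EtopoTopo, against 9.12, 9.18 and 9.31 with DMSO. All 7 KO drug arrays lay below the KO DMSO arrays. Aurkb fell by 0.58 ± 0.18 in KO EtopoTopo and by 0.69 ± 0.16 in WT EtopoTopo (limma adjusted p = 0.0314 and 0.00862).

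Cdca8 was at 7.27 and 7.25 in KO Etopo, 6.93, 7.34 and 7.40 in KO Topo, and 7.36 and 7.17 in KO EtopoTopo, against 7.88, 8.02 and 8.14 in KO DMSO. Cdca8 in WT was at 7.65, 8.05 and 7.55 with Etopo, 7.28, 7.63 and 7.37 with Topo, and 7.10, 7.19 and 7.53 with EtopoTopo, against 8.04, 7.68 and 7.66 with DMSO. Its KO drug arrays lay below KO DMSO, and WT Etopo 2 lay above all WT DMSO arrays. Cdca8 fell in KO Topo, KO EtopoTopo and WT EtopoTopo, by 0.52 to 0.79. Birc5 showed the smallest changes in WT Topo and WT EtopoTopo of all members. It ran from 6.89 to 7.37 on the 7 KO drug arrays, against 7.09 to 7.60 in KO DMSO, and from 6.98 to 7.39 on the 9 WT drug arrays, against 7.18 to 7.44 in WT DMSO. Its ranges overlapped in both genotypes and it was not called.

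Spindle assembly genes (7 members) act on microtubules and poles. Of these, 4 fell in KO Topo, 6 in KO EtopoTopo, 2 in WT Topo and 6 in WT EtopoTopo. Hmmr, a spindle pole protein that is also a hyaluronan receptor, was at 6.32 and 6.79 in KO Etopo, 6.01, 6.64 and 6.69 in KO Topo, and 6.54 and 6.61 in KO EtopoTopo, against 7.50, 6.90 and 7.51 in KO DMSO. Hmmr in WT was at 7.28, 7.46 and 7.31 with Etopo, 6.61, 7.01 and 6.53 with Topo, and 6.08, 6.36 and 6.64 with EtopoTopo, against 7.75, 7.14 and 7.31 with DMSO. WT Etopo lay within the WT DMSO range and the other drug groups below DMSO. In WT EtopoTopo Hmmr fell by 1.04 ± 0.21 (limma adjusted p = 0.00281), and by 0.86 ± 0.21 and 0.73 ± 0.23 in KO Topo and KO EtopoTopo.

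Tpx2, which activates Aurora A and seeds microtubules, fell in all 4 contrasts. It was at 8.10 and 8.12 in KO Etopo, 7.48, 8.14 and 8.16 in KO Topo, and 7.62 and 7.80 in KO EtopoTopo, against 8.53, 8.42 and 8.91 in KO DMSO. Tpx2 in WT was at 8.53, 8.38 and 8.24 with Etopo, 7.77, 7.93 and 7.85 with Topo, and 7.51, 7.58 and 7.56 with EtopoTopo, against 8.61, 8.57 and 8.42 with DMSO. The 3 WT EtopoTopo arrays lay close together and below the 3 WT Topo arrays. Aspm, a spindle pole protein known for microcephaly in people with mutations, fell in all 4, by 0.71 to 1.02, and Nusap1, which binds spindle microtubules near chromosomes, fell in KO Topo, KO EtopoTopo and WT EtopoTopo, by 0.91 to 1.07. Dlgap5 fell in both EtopoTopo groups, Ckap2 in KO EtopoTopo and Ckap2l in WT EtopoTopo.

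Mki67, Cdca2 and Cdca3 form a small group of chromosome surface and other cell division genes. Mki67, the Ki-67 proliferation antigen that coats mitotic chromosomes, was at 8.38 and 8.62 in KO Etopo, 8.11, 8.57 and 8.74 in KO Topo, and 8.09 and 8.71 in KO EtopoTopo, against 10.10, 9.26 and 9.66 in KO DMSO. Mki67 in WT was at 9.55, 9.56 and 9.84 with Etopo, 8.67, 9.24 and 9.30 with Topo, and 8.65, 9.05 and 9.05 with EtopoTopo, against 9.99, 9.56 and 9.82 with DMSO. All 7 KO drug arrays lay clearly below the lowest KO DMSO array. Mki67 fell by 1.20 ± 0.22 in KO Topo (limma adjusted p = 0.0131), 1.27 ± 0.25 in KO EtopoTopo (adjusted p = 0.00408) and, in WT EtopoTopo, by 0.88 ± 0.22 (adjusted p = 0.0123). Cdca2, which brings a phosphatase to chromosomes, ran from 6.83 to 7.23 on the KO drug arrays, against 7.02 to 7.26 in KO DMSO, and from 7.02 to 7.28 on the WT drug arrays, against 7.36 to 7.55 in WT DMSO. It was called in 1 of the 4 contrasts, WT EtopoTopo (-0.34 ± 0.11, limma adjusted p = 0.0419). Cdca3 ran from 6.84 to 7.87 on the KO drug arrays, against 7.58 to 7.91 in KO DMSO, and from 7.36 to 7.92 on the WT drug arrays, against 7.98 to 8.02 in WT DMSO. It was called in 1 of the 4, KO Topo (-0.60 ± 0.15, limma adjusted p = 0.049).

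Ube2c, the ubiquitin-conjugating enzyme of APC/C, and Cdc20, its activator, act at exit. Ube2c was at 8.63 and 8.96 in KO Etopo, 7.92, 8.96 and 8.96 in KO Topo, and 8.77 and 8.77 in KO EtopoTopo, against 9.57, 9.41 and 9.76 in KO DMSO. Ube2c in WT was at 9.28, 9.78 and 9.59 with Etopo, 9.13, 9.41 and 8.82 with Topo, and 8.55, 9.17 and 9.20 with EtopoTopo, against 9.62, 9.87 and 9.49 with DMSO. Every KO drug array lay below KO DMSO, and so did WT Topo and WT EtopoTopo below WT DMSO. Ube2c fell by 0.96 ± 0.23 in KO Topo and by 0.81 ± 0.26 in KO EtopoTopo (limma adjusted p = 0.0448 and 0.0332). Cdc20 ran from 7.26 to 8.04 on the KO drug arrays, against 8.04 to 8.43 in KO DMSO, and from 7.51 to 8.43 on the WT drug arrays, against 8.19 to 8.56 in WT DMSO. In WT EtopoTopo it fell by 0.65 ± 0.17 (limma adjusted p = 0.0169).

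Members differed in how often they were called. Among the 4 comparisons of Topo or EtopoTopo with DMSO in KO and WT, 8 members fell in all 4, namely Cdk1, Ccnb2, Cenpe, Kif20a, Kif2c, Aspm, Tpx2 and Ect2. Another 9 fell in 3, 10 in 2 and 13 in 1, and Kif20b, Ndc80 and Birc5 in none. Both EtopoTopo contrasts shared 23 members, which is 85.2% of the 27 called in KO and 67.6% of the 34 called in WT. Both Topo contrasts shared 8, which is 36.4% of the 22 in KO and 88.9% of the 9 in WT. The more members each contrast calls, the more are shared by the totals alone. Sharing over all genes was not counted. As a share of all genes called lower, the members were 14.3% in KO Topo (22 of 154), 1.2% in KO EtopoTopo (27 of 2319), 3.3% in WT Topo (9 of 272) and 2.4% in WT EtopoTopo (34 of 1438). The KO Topo count is the one that went to 5 without KO Topo 1 and 0 without KO DMSO 3.

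The second question was whether the drug effect differed with Aire. The test was the interaction, the KO drug effect minus the WT drug effect, and it called 0 members for Etopo, 0 for Topo and 0 for EtopoTopo (limma, where it called 0%, 0.0759% and 2.46% of all genes in either direction). Etopo was the drug for which the values of the genotypes lay furthest apart. Its median interaction over the members was -0.45, with 42 of 43 below 0 and an all-gene median of 0.04, and 20 members had an unadjusted p under 0.05 in the lower direction, against 1.77% of all genes. The lowest adjusted p among members was 0.855. By the unadjusted p alone, 39 members were lower in KO Etopo than in KO DMSO, against 2.8% of all genes, and 2 were lower in WT Etopo than in WT DMSO, against 3.4%. In KO Etopo 707 of all 19752 genes had an unadjusted p under 0.05 in either direction, and the lowest adjusted p of a member was 0.209 (Aspm). KO Etopo has 2 arrays, and no single member passed the test over all genes there. For Topo the median interaction was -0.15 and 0 members were lower by the unadjusted p (1.33% of all genes). For EtopoTopo it was 0.07, with 3 members higher (10.6% of all genes) and 0 lower (4.12%) by that measure.

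Cyclin A2 and Kif11 had the widest Etopo gaps between genotypes. The log2 change of Ccna2 was -1.18 ± 0.29 in KO and 0.12 ± 0.26 in WT, and that of Kif11 was -1.31 ± 0.27 in KO and -0.05 ± 0.24 in WT. Nusap1 had -0.98 ± 0.23 in KO and 0.23 ± 0.20 in WT. At the other end, Cdca2 had -0.21 ± 0.12 in KO and -0.24 ± 0.11 in WT, and Racgap1 had -0.27 ± 0.21 in KO and -0.22 ± 0.18 in WT.

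**Figure D5:**
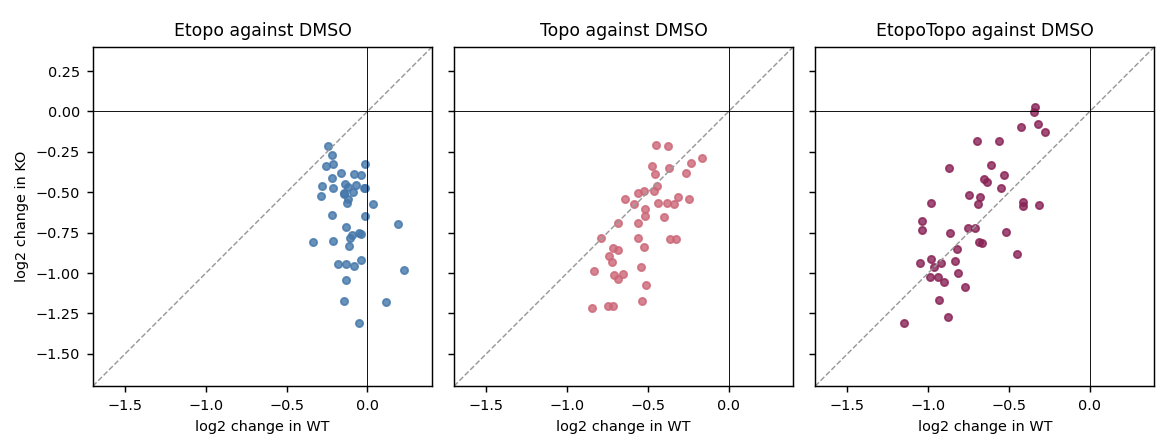
For each drug, the log2 change of each mitosis gene against DMSO in KO is plotted against its change in WT, with 1 point per gene. In the Etopo panel the points lie between -1.31 and -0.21 in KO and between -0.34 and 0.23 in WT, and in the Topo and EtopoTopo panels both genotypes are below 0 for nearly all points.

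The 2 single drugs were set against each other within each genotype. Over all genes, the median of Topo minus Etopo was 0.03 in WT and -0.02 in KO, and that of WT EtopoTopo minus WT Topo was -0.02. In WT, Topo gave lower values than Etopo for all 43 members, with a median difference of -0.38, and 35 members did not overlap (5.34% of all genes), but 0 were called (0.00506% of all genes were called lower), and 24 had an unadjusted p under 0.05 (2.28% of all genes). In KO the median difference of Topo minus Etopo was -0.03, with 24 members below 0, 0 called (0% of all genes) and 1 below 0.05 unadjusted (1.5% of all genes). WT EtopoTopo minus WT Etopo had a median of -0.61 over the members, with 19 members called lower (2.47% of all genes), led by Cdk1 (-1.03 ± 0.17) and Nusap1 (-1.13 ± 0.20). That count became 5 when either WT Etopo 1 or 2 was dropped, 7, 6 and 11 when WT EtopoTopo 1, 2 or 3 was dropped, and 0 with age as a covariate, within arrays of 4 weeks, or without the 2 arrays whose labels conflict. Against WT Topo, WT EtopoTopo had a median of -0.19, with 38 members below 0 and 0 called, beside 0.243% of all genes, and 4 members had an unadjusted p under 0.05 (9.06% of all genes).

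Loss of Aire alone left the group near its WT level under DMSO. The median difference, KO DMSO minus WT DMSO, was -0.09, with 28 of 43 below 0, where the all-gene median was -0.01. Of the members, 2 were higher and 3 lower (limma), while 19.4% of all genes were called in either direction. Bub1b was higher in KO (0.68 ± 0.18, adjusted p = 0.00836), at 9.17, 8.69 and 9.49 in KO DMSO against 8.34, 8.48 and 8.49 in WT DMSO. Kif4 was higher as well (0.64 ± 0.18, limma adjusted p = 0.0127), at 8.51, 8.38 and 8.46 in KO DMSO against 8.25, 7.41 and 7.77 in WT DMSO. Neither gene's groups overlapped. Of all 19752 genes, 2696 had every KO DMSO array above every WT DMSO array, and 3603 had every one below. Lower in KO were Ckap2l (-0.47 ± 0.13), Ttk (-0.45 ± 0.14) and Cdca2 (-0.32 ± 0.11). Over all genes 1462 were higher and 2363 lower as deposited, and 1823 and 1947 with quantile normalisation. The count of 5 became 2 without KO DMSO 2, 3 without WT DMSO 2, and 2 without the pair of thymocyte-rich DMSO arrays.

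Other genes of the same pathway came from a list of 64 measured mitosis genes outside the 43. Of these 64, 7 fell in KO Topo (10.94%, against 0.78% of all genes), 23 in KO EtopoTopo (35.94%, against 11.7%), 3 in WT Topo (4.69%, against 1.38%) and 23 in WT EtopoTopo (35.94%, against 7.28%), and 0 rose in any of the 4. Log2 changes were below 0 for 59, 57, 60 and 57 of them in those contrasts, with medians of -0.41, -0.38, -0.30 and -0.37. The highest were Mis12 at 0.07 in KO Topo, Cenpw at 0.40 in KO EtopoTopo, Pttg1 at 0.27 in WT Topo and Cdc25b at 0.35 in WT EtopoTopo, none of them called. Top2a, the topoisomerase II of dividing cells and a target of etoposide, fell by 1.11 ± 0.27 in KO Topo (limma adjusted p = 0.0475), 1.64 ± 0.30 in KO EtopoTopo (adjusted p = 0.00297) and, in WT EtopoTopo, by 1.29 ± 0.27 (adjusted p = 0.00359). The condensin subunit Ncaph fell by 0.99 ± 0.18 in KO Topo and 1.02 ± 0.20 in KO EtopoTopo, and its partner Ncapg fell by 0.75 ± 0.18 in WT Topo and 0.99 ± 0.18 in WT EtopoTopo.

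Of 16 genes of mitotic transcription factors and the DREAM complex, 1 fell in KO Topo (0.78% of all genes) and 2 in KO EtopoTopo (11.7%). In WT, 1 fell with Topo (1.38%) and 2 with EtopoTopo (7.28%). Foxm1, the activator of many G2 and mitosis genes, was at 7.37 and 7.33 in KO Etopo, 7.27, 7.25 and 7.30 in KO Topo, and 7.53 and 7.48 in KO EtopoTopo, against 8.22, 7.78 and 7.93 in KO DMSO. Foxm1 in WT was at 7.71, 7.93 and 7.87 with Etopo, 7.42, 7.69 and 7.68 with Topo, and 7.46, 7.20 and 7.44 with EtopoTopo, against 8.04, 7.91 and 7.98 with DMSO. It fell by 0.70 ± 0.12 in KO Topo (limma adjusted p = 0.0103), 0.47 ± 0.14 in KO EtopoTopo (adjusted p = 0.0218) and, in WT EtopoTopo, by 0.61 ± 0.12 (adjusted p = 0.00248). Mybl2 (B-Myb) had changes between -0.23 and -0.07 in the 6 drug contrasts and was called in none.

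Markers of other cells were read in the same contrasts. Some thymocytes divide fast, though not all do. Of 17 thymocyte genes, 2 fell in KO Topo (11.76%, against 0.78% of all genes) and 1 in KO EtopoTopo (5.88%, against 11.7%). In WT, 1 of the 17 fell with Topo (5.88%, against 1.38%) and 2 with EtopoTopo (11.76%, against 7.28%), and 0 were higher in any of these contrasts. Their median changes were -0.67 in KO Etopo, -0.64 in KO Topo, -0.50 in KO EtopoTopo, -0.55 in WT Etopo, -0.50 in WT Topo and -0.58 in WT EtopoTopo. The thymocyte mean ran from 7.04 to 7.50 in KO Topo, against 7.20 to 8.61 in KO DMSO, and from 6.92 to 7.17 in WT EtopoTopo, against 7.35 to 8.19 in WT DMSO. None of the thymocyte markers was at 0 on this scale, since array background is not 0. Without the 2 thymocyte-rich DMSO arrays, the median over the mitosis genes was -0.67 in KO Topo, -0.65 in KO EtopoTopo, -0.51 in WT Topo and -0.71 in WT EtopoTopo, and the calls were 8, 24, 2 and 23. Of 9 B cell genes, 0 fell in KO Topo, 0 in KO EtopoTopo, 0 in WT Topo and 1 in WT EtopoTopo, and 2 rose in KO EtopoTopo. Of 13 macrophage and dendritic cell genes, 0, 2, 1 and 3 fell in those contrasts, and 2 rose in KO EtopoTopo. Of 11 stroma and endothelium genes, 0, 1, 0 and 1 fell, and 1 rose in WT EtopoTopo. Of 10 genes of cortical thymic epithelium, 0, 1, 0 and 1 fell. For the lists from B cells on, the all-gene shares called lower are those given for the thymocyte genes. Called higher over all genes were 11.1% in KO EtopoTopo and 3.6% in WT EtopoTopo.

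Of 11 tuft-like genes, of a chemosensory epithelial type found in the medulla, 3 rose in KO Topo (0.253% of all genes were called higher), 4 in KO EtopoTopo (11.1%), 7 in WT Topo (0.83%) and 10 in WT EtopoTopo (3.6%). Their mean was 9.34 and 9.66 in KO Etopo, 9.75 to 10.09 in KO Topo and 9.45 to 10.10 in KO EtopoTopo, against 9.09 to 9.45 in KO DMSO. In WT it was 9.71 to 10.02 with Etopo, 10.04 to 10.25 with Topo and 10.35 to 10.47 with EtopoTopo, against 9.16 to 9.42 with DMSO. In WT Etopo the tuft-like median was 0.60, with 9 of 11 higher by the unadjusted p (2.16% of all genes), beside -0.12 over the mitosis genes. In KO Etopo it was 0.28, with 0 of 11 higher by that measure (0.78% of all genes), beside -0.57 over the mitosis genes, and 0 tuft-like genes were called in either. Of the 15 MEC markers, 6 fell in KO EtopoTopo (11.7% of all genes) and 0 in KO Topo (0.78%). In WT, 2 fell with EtopoTopo (7.28%) and 1 with Topo (1.38%). The part of these cell types in the change of the mitosis genes was not tested.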

How the data were processed

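The authors deposited 1 linear intensity value per probe and array, and the submitters' processing notes name RMA and Affymetrix Power Tools without versions. Per the labels, RNA was extracted with Trizol and amplified with the Ambion WT Expression kit. The planned design had assumed a log2 scale, so log2 of each deposited intensity was taken, with no pseudocount and no further normalization. Of 24922 probes, 21425 had 1 gene symbol, 1399 several and 2098 none in the annotation used, and only probes with 1 symbol were kept. The Entrez identifiers of 21347 probes were in the RefSeq annotation, and 0 symbols changed. Arrays give no read depth: median intensity was 236.1 to 263.6, replicate arrays correlated at 0.961 to 0.997, and the number of arrays limits the precision.

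Differences were tested with limma 3.58.1 in R 4.3.3 (data.table version 1.17.8), with a mean for each group fitted by lmFit to the 22 arrays and variances moderated by eBayes (residual degrees of freedom 14, prior 7.22), and Benjamini-Hochberg adjustment over 19752 genes and calls at an adjusted p under 0.05. The fit was tested on simulated data. The members and lists were chosen with earlier results of these data known. Shown array by array were, per role, the 2 members with the largest mean absolute change over WT Topo and WT EtopoTopo, and every member of roles with 3 or fewer. From each other list, up to 4 genes with the largest change in a contrast were eligible, besides Aire, Top1, Top2a, Top2b, Foxm1, Mybl2, Ccnb1, Cd3e, Ptprc, Rag1 and Epcam. The promoter stretch of 1 such member is not reported here.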

Additional observations from a re-analysis of the deposited data

How the results depend on the processing

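No direction of a called member reversed under any alternative. Of 1897 comparisons of a called gene under an alternative, 1245 stayed past the threshold and 652 did not. Of 245 medians over the members, 6 moved by more than 0.142, the SD between arrays of a group. The counts of calls under the alternatives are of members alone, and all-gene calls are given only for quantile normalization. A change in such a count need not be particular to the members. Age as a covariate gave 14 calls in WT EtopoTopo (34 as reported), 0 in KO EtopoTopo (27) and 0 in WT EtopoTopo against WT Etopo (19). With only the groups compared, calls were 15 in WT Topo (9), 0 in KO Topo (22), 0 in KO EtopoTopo, 3 between KO and WT DMSO (5), 1 in WT EtopoTopo against WT Topo (0) and 30 against WT Etopo. Quantile normalization gave 14 in KO Topo. Over all genes it changed the calls of WT EtopoTopo against WT Topo to 157 higher and 107 lower (27 and 48 as deposited), and those of the EtopoTopo interaction to 223 higher and 38 lower (465 and 21).

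Without the thymocyte-rich DMSO arrays, calls were 2 in WT Topo, 8 in KO Topo and 2 between KO and WT DMSO. Without both arrays whose labels conflict, they were 4 in WT EtopoTopo and 0 against WT Etopo. The following were chosen after seeing the data. Within arrays of 6 weeks WT Topo had 3 calls, and within arrays of 4 weeks WT EtopoTopo had 2 and WT EtopoTopo against WT Etopo 0. Without the arrays of narrow range, calls were 23 in WT Topo, 1 in KO Etopo, 4 in KO Topo, 8 in KO EtopoTopo and 8 between KO and WT DMSO. Without the arrays labelled male, they were 1 in WT Topo, 19 in WT EtopoTopo, 3 between KO and WT DMSO and 2 in WT EtopoTopo against WT Etopo. In these fits fewer arrays are left, and the cause of each change was not tested.

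Leaving out 1 array at a time gave 0 to 6 calls in WT Topo, 22 to 31 in WT EtopoTopo, 0 to 2 in KO Etopo, 0 to 23 in KO Topo, 2 to 28 in KO EtopoTopo, 2 to 4 between KO and WT DMSO, 0 to 1 in the EtopoTopo interaction and 5 to 18 in WT EtopoTopo against WT Etopo. Where 1 array was left in a group, its spread was taken from the other groups. Replicate numbers come from the titles. Arrays with the same number had residual correlations from -0.558 to 0.592 (median -0.046), and arrays with different numbers from -0.501 to 0.564 (median 0.001). By the medians, arrays with the same number were no more alike than others. Medians over all pairs cannot exclude pairing among some of the groups. With the replicate number as a block, calls were 10 in WT Topo, 36 in WT EtopoTopo, 23 in KO Topo, 24 in KO EtopoTopo, 5 between KO and WT DMSO and 19 in WT EtopoTopo against WT Etopo.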

Other observations

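Genes of G1 and S phase license and copy DNA before mitosis. Of 53 measured, 8 fell in KO Topo (15.09%, against 0.78% of all genes), 21 fell (39.62%, against 11.7%) and 1 rose in KO EtopoTopo, 1 fell in WT Topo (1.89%, near the 1.38% of all genes) and 10 fell in WT EtopoTopo (18.87%, against 7.28%), with medians of -0.43, -0.43, -0.19 and -0.26. Rrm2, the ribonucleotide reductase subunit made in S phase, fell by 1.28 ± 0.21 in KO Topo (limma adjusted p = 0.00894), by 1.16 ± 0.23 in KO EtopoTopo (adjusted p = 0.00477) and by 0.87 ± 0.21 in WT EtopoTopo (adjusted p = 0.00954). Its change in KO Etopo was -1.14 ± 0.23, which was not called (limma adjusted p = 0.209). Of 53 such genes, 27 had an unadjusted p under 0.05 in the lower direction in KO Etopo (2.8% of all genes) and 2 in WT Etopo (3.4%), and 0 were called in either.

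Of 15 measured inhibitors of the cycle and related stress genes (16 were listed), 0 were called in KO Topo and 0 in WT Topo. The 15 do not include Cdkn1a (p21), so its change was not read here. In KO EtopoTopo 3 fell (11.7% of all genes), and in WT EtopoTopo 1 rose (3.6% of all genes). The median over the 15 was 0.02 in KO Topo, with 0 lower and 0 higher by the unadjusted p. In WT Topo it was 0.23, with 1 of 15 below 0, and by the unadjusted p 4 were higher (4.65% of all genes) and 0 lower. The highest there was Btg2, an antiproliferative gene, at 0.82. Gadd45a, induced by DNA damage, fell by 0.82 ± 0.21 in KO EtopoTopo (limma adjusted p = 0.0138), and Rb1, the retinoblastoma repressor, rose by 0.46 ± 0.13 in WT EtopoTopo (adjusted p = 0.0218).

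Members with TTTGAA in the promoter window (28) and those without it (9) were set side by side, with no test. Medians with the hexamer were -0.74 in KO Topo, -0.70 in KO EtopoTopo, -0.53 in WT Topo and -0.70 in WT EtopoTopo, against -0.50, -0.52, -0.51 and -0.75 without it. Called lower in KO Topo were 16 of 28 with the hexamer and 3 of 9 without (0.78% of all genes). In KO EtopoTopo they were 17 of 28 and 5 of 9 (11.7%). In WT Topo they were 5 of 28 and 2 of 9 (1.38%), and in WT EtopoTopo 22 of 28 and 7 of 9 (7.28%).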
